A study of Mus musculus with 18 samples.

Results

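Mouse bone marrow-derived macrophages labelled TLR4 knockout were compared with wild-type macrophages after both had received GM, the disaccharide GlcNAc-MurNAc from which the glycan strands of bacterial peptidoglycan are built. The comparison takes in the 3 knockout and the 3 wild-type libraries of this treatment, 6 of the 18 libraries of the study, and every gene with enough reads to test: 14377 of the 56748 genes in the count table. Both genotypes are labelled C57BL/6J, the culture medium held supernatant of L929 cells, which secrete M-CSF, and treatment began on day 7 and lasted 24 h in serum-free IMDM. The other groups used here differ only in the addition: water, or MDP, which the labels spell MurNAc-D-Ala-L-Gln, each with 3 wild-type and 3 knockout libraries. The dose of GM and the kind of knockout allele are not given, nor is it said whether the biological replicates of a group came from different mice or dishes. The p-values therefore reflect only how much these samples varied, part of which can be technical.

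TLR4 is the receptor through which macrophages detect bacterial lipopolysaccharide, which is handed to it by the lipid carriers LBP and CD14 and bound together with the co-receptor encoded by Ly96. From the cell surface it signals through the adaptors TIRAP and MyD88 to the kinase TAK1 and NF-kB, which switches on cytokine and chemokine genes. From endosomes it signals through TRAM (Ticam2) and TRIF (Ticam1) to TBK1 and IRF3, which switch on interferon beta and, through the interferon receptor, a large group of antiviral genes.

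The 6 libraries held 17242387 to 21128507 counts each, of which 3.1% to 3.36% fell on mitochondrial genes. The first principal component held 83% of the variance of the 1000 most variable genes and separated the genotypes. The second held 13.1% and spread the wild-type libraries, from -23.2 for replicate 2 to 17.5 for replicate 3, while the 3 knockout libraries lay between 1 and 2.2. The biological coefficient of variation, the spread between libraries beyond counting noise, was 27.6% in wild type and 6.12% in knockout. Values for single libraries are given below in the order of the replicate numbers, as CPM, counts relative to library size scaled with TMM factors, and a gene is said to have passed, risen or fallen where its edgeR adjusted p was under 0.05.

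Tlr4 itself (ENSMUSG00000039005, GRCm39 chromosome 4, 66745821 to 66848521) stood at 192, 179 and 185 CPM in wild type and at 39.5, 39 and 36.5 CPM in knockout. The groups did not overlap, and the knockout mean was 20.7% of the wild-type mean (log2 difference -2.25, SE 0.07, edgeR adjusted p = 1.0e-04). The transcript was thus lower and not absent, and the counts do not show which part of the gene they come from.

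Across all genes tested, 4654 differed between knockout and wild type under GM, 32.4% of 14377. Of these, 2123 were higher in knockout (14.8% of all genes tested) and 2531 lower (17.6%), and 887 and 1000 of them differed at least 2-fold (6.17% and 6.96%). The median difference over all genes was 0, and 52.2% of all genes tested did not overlap between the groups. Of 53 tested genes whose start lies within 10 Mb of Tlr4, 8 were higher and 15 lower (5 and 9 without knockout replicate 1 or 3), with a median log2 difference of -0.11. The count of 4654 changed when 1 library was left out. It was 6514 without wild-type replicate 2, 2833 without wild-type replicate 1, and 2215, 2235 and 2190 without knockout replicate 1, 2 or 3. The last 3 counts were close to each other, so no single knockout library stood out. Fits without 1 library have fewer samples, and the test shares its spread between both groups. The part of this in the lost calls was not tested. Scaling by total counts alone moved the median of all genes by 0.11 on the log2 scale, and 60.2% of the genes that passed were then higher, against 45.6%.

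**Figure D1:**
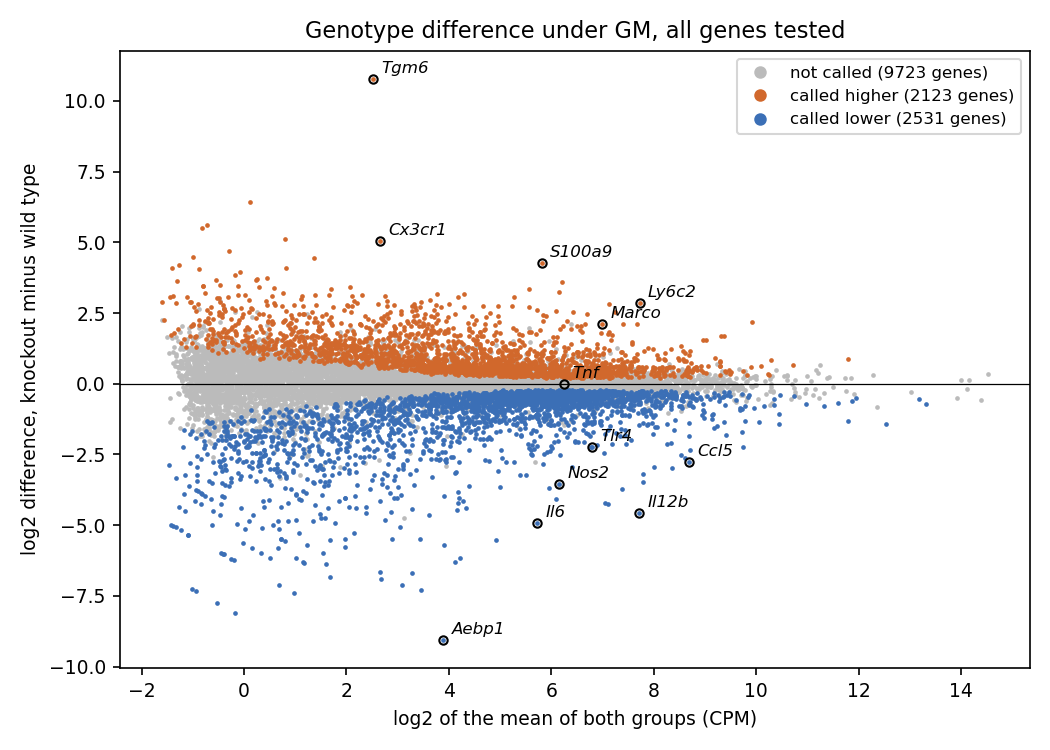
Log2 difference between knockout and wild type under GM (vertical axis) against the log2 of the mean level of both groups in CPM (horizontal axis) for the 14377 genes tested, with 1 point a gene. Orange points are the 2123 genes that were higher in knockout and blue points the 2531 that were lower, with named genes circled. Tgm6 lies highest and Aebp1 lowest among the circled genes.

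Marker genes were read for cell types that the cultures could hold. The counts of markers that passed stand beside 14.8% higher and 17.6% lower over all genes tested. All 16 macrophage markers were tested, and their summed level was 25600 to 26100 CPM in wild type and 30100 to 34000 in knockout. Their median log2 difference was -0.08 (0.02 with total counts), and 11 of the 16 did not pass. Of the 16, 4 were higher in knockout, among them the M-CSF receptor gene Csf1r (851, 871 and 614 against 1170, 1170 and 1100 CPM, log2 0.58) and Adgre1, which encodes F4/80 (log2 0.64), and the complement gene C1qa was lower (log2 -2.18). Without any 1 of the knockout libraries 2 were higher and 0 lower.

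Markers of stromal cells differed more, with a median log2 difference of -3.71. Of 13 tested fibroblast and stroma markers 10 were lower in knockout. The collagen gene Col1a2 was at 8.61, 22.6 and 7.88 CPM in wild type and at 0.46, 0.458 and 0.448 CPM in knockout (log2 -4.80, edgeR adjusted p = 0.00142), and the matrix protein gene Sparc at 11.4, 15.9 and 16.5 against 0.46, 0.356 and 0.134 CPM. All 10 were at or under 1.43 CPM in every knockout library and between 1.47 and 22.6 CPM in the wild-type libraries. Fstl1 went against them (59.2, 68 and 106 against 368, 326 and 297 CPM, log2 2.11) and set the sum of the list, 145 to 206 CPM in wild type and 318 to 391 CPM in knockout. In bulk RNA, fewer cells of a type and less RNA per cell cannot be told apart.

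Among blood cell markers, 7 of 10 tested neutrophil markers were higher in knockout and 0 lower, and 7 of 9 dendritic cell markers were lower and 0 higher. Of 12 monocyte markers 4 were higher, 2 lower and 6 did not pass, with a median log2 difference of 0.75. Over all genes tested 14.8% were higher and 17.6% lower, and some of the short lists here had shares near these. The summed level of the monocyte list was 469 to 791 CPM in wild type and 1530 to 1820 CPM in knockout, and that of the dendritic cell list 3420 to 5130 and 1170 to 1360 CPM. A sum follows its most abundant members and not the list as a whole. In the monocyte list Chil3 rose from 194 ± 69.7 to 617 ± 35.1 FPKM (SD). The neutrophil sum, 1260 to 2580 against 2460 to 2580 CPM, overlapped. With water the monocyte sum was 436 to 737 and 1380 to 1530 CPM, and the dendritic cell sum 1710 to 2350 and 1270 to 1350 CPM. Some markers are also in the response lists below: Bst2 (interferon) and Ccl22 (chemokines) of the dendritic cell list, and Chil3 and F13a1 (alternative activation) of the monocyte list. Such sums can thus change with the response of a cell as well as with its type. Ly6c2, the antigen of inflammatory monocytes, was at 54.8, 48.1 and 54.2 CPM in wild type and 462, 330 and 321 in knockout (log2 2.85, edgeR adjusted p = 1.9e-04). The granule protein gene Elane was at or under 0.102 CPM in all 6 libraries, Ly6g, the neutrophil surface antigen, at or under 0.244 CPM, and Retnlg had 0 counts. The homing receptor Ccr7 of mature dendritic cells went from 482, 560 and 496 CPM to 146, 161 and 184 CPM (log2 -1.63). Of the B, T and NK cell markers 5 of 12 passed the filter and 4 were higher (2 without knockout replicate 3), with a summed level of 5.65 to 7.46 CPM in wild type and 7.93 to 9.51 CPM in knockout, led by the B cell receptor gene Cd79b with 1 count in the wild-type group and 132 in knockout (ratio 114, exact interval 20.1 to 4540 at 95%, counting error only). Of the osteoclast markers 1 was higher and 2 lower of 7, and of the erythroid, mast cell and megakaryocyte markers 1 was higher and 2 lower of 6, with a summed level of 174 to 273 CPM in wild type and 91.8 to 104 CPM in knockout. The 2 lower ones were the platelet factor gene Pf4 (log2 -1.30) and the stem cell factor receptor gene Kit (-1.54), and the higher one was the basophil protease gene Mcpt8, with 12 counts in the wild-type group and 301 in knockout. The part of these cell types in the differences below was not tested.

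Among the components of the receptor complex and its signal relay, 26 genes in all, 5 were higher and 10 lower in knockout (median log2 difference -0.26). The genes of the co-receptor and the lipid carriers did not move as one. Ly96 was at 11.4, 9.72 and 16 CPM in wild type and 8.94, 9.22 and 8.91 in knockout, and did not pass (log2 -0.43, edgeR adjusted p = 0.137). Cd14 was at 475, 265 and 534 against 365, 339 and 361 CPM and did not pass either (log2 -0.24, edgeR adjusted p = 0.473). It did without wild-type replicate 2, the lowest library of its group. Lbp rose from about 1 CPM (1.21, 1.24 and 0.855) to 5.42, 5.4 and 4.75 CPM (log2 2.25, edgeR adjusted p = 0.00112).

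Of the intracellular relay, the ubiquitin ligase gene Traf6 fell from 66.6, 66.4 and 80.3 CPM to 31.9, 30.5 and 33.2 CPM (log2 -1.14, edgeR adjusted p = 6.7e-04). Ticam1 (log2 -0.66), the kinase gene Irak2 (-0.76) and Traf3 (-0.50) also fell. The bridging adaptor gene Ticam2 was higher (log2 0.62), as were the TAK1 kinase gene Map3k7 (0.40) and its partner Tab1 (0.48), the last not without wild-type replicate 1 or any 1 of the knockout libraries. Without knockout replicate 2 the list had 5 lower members. Irak3, which encodes the kinase-dead inhibitor IRAK-M, stood apart without overlap: 45.3, 40.4 and 43.2 CPM in wild type against 158, 145 and 149 CPM in knockout (log2 1.83, SE 0.08, edgeR adjusted p = 1.1e-04). It was higher in knockout with water too (log2 2.33) and with MDP (2.37).

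NF-kB subunits, targets and feedback genes were lower more often than higher: of 25 tested, 11 fell and 3 rose, with a median of -0.32. The co-stimulatory receptor gene Cd40 fell furthest, from 56.8, 47.5 and 63.8 CPM to 5.72, 6.16 and 7.44 CPM (log2 -3.10, edgeR adjusted p = 1.3e-04). The adaptor gene Traf1 (log2 -1.37), the stress response gene Ier3 (-1.22) and Cflar, which restrains caspase-8 (-0.84), had smaller differences. The subunit genes Rel (-0.76), Nfkb2 (-0.65) and Rela (-0.33) fell by less, and Nfkb1 did not pass (-0.23, edgeR adjusted p = 0.286). The 3 members that rose were Zc3h12a, which encodes the mRNA-degrading enzyme regnase (41.9, 32.4 and 46.6 against 83.1, 91.1 and 85.1 CPM, log2 1.12), Nfkbiz, which encodes a nuclear regulator of NF-kB targets (0.76), and Birc3, an inhibitor of apoptosis (0.30). The calls of Nfkbiz and Birc3 were lost without wild-type replicate 1 or any 1 of the knockout libraries, and without any 1 of the latter the list had 7 lower members.

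Cytokine genes were among those with the widest gap. Of 22 listed, 18 passed the filter on low counts, and of these 13 were lower in knockout and 1 higher, with a median log2 difference of -1.51. Il6, a fever and acute-phase cytokine (GRCm39 chromosome 5, 30218112 to 30224979), was at 113, 55.8 and 137 CPM in wild type and at 3.63, 3.05 and 3.23 CPM in knockout. By the fitted log2 difference of -4.92 (SE 0.37, edgeR adjusted p = 4.2e-04) the wild-type level was 30.3-fold the knockout level. Il12b, the subunit shared by the T cell polarising interleukins (chromosome 11, 44290890 to 44304860), went from 449, 225 and 540 CPM to 13.8, 17.3 and 19.4 CPM (log2 -4.56, edgeR adjusted p = 4.7e-04). Wild-type replicate 2 was the lowest of its group for both, and still far above every knockout library.

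The interleukin-1 genes fell less far. Il1b (chromosome 2, 129206490 to 129213059) was at 759, 403 and 928 CPM in wild type against 144, 129 and 135 CPM in knockout (log2 -2.34, SE 0.29, edgeR adjusted p = 0.00211), Il1a had a log2 difference of -2.98, and Il1rn, whose product blocks their receptor, one of -1.72. Further members that fell were Lif (log2 -3.93) and Osm (-1.63), cytokines of the interleukin-6 family, and the M-CSF gene Csf1 (-1.54). The growth factor gene Csf3 was low in both groups, at 3.02, 2.85 and 3.3 against 0.716, 0.611 and 0.314 CPM.

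Tnf, a cytokine that NF-kB induces early, did not differ beyond the spread: 84.9, 59.4 and 86.2 CPM in wild type and 75.1, 70.9 and 78.1 CPM in knockout (log2 -0.02, 95% interval -0.36 to 0.33, edgeR adjusted p = 0.931). Ebi3, a subunit of interleukin-27, was the 1 member that rose (50.2, 46.3 and 48.5 against 66.5, 69 and 66.3 CPM, log2 0.50). Il10, the main cytokine that restrains macrophages, was too low to test: 1.21, 0.483 and 1.34 CPM in wild type and 0.0511, 0.0509 and 0.0448 CPM in knockout. Ifnb1, the interferon gene downstream of TRIF, was at or under 0.179 CPM in all 6 libraries.

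Per gene length, in the FPKM that the authors computed, Il1b had the highest mean of the listed cytokines in both genotypes, at 359 ± 139 FPKM in wild type and 70.9 ± 4.03 in knockout (SD, n = 3). Behind it the order differed: Il1a (289 ± 111), Il1rn (231 ± 54) and Il12b (202 ± 81.9) followed in wild type, where the spreads of these neighbours overlapped. Il1rn (70 ± 3.62), within the spread of Il1b, Tgfb1, which restrains inflammation (63.5 ± 2.47), Ebi3 (58 ± 1.29) and Tnf (45.4 ± 2.21) followed in knockout, and Il12b stood at 8.53 ± 1.44 FPKM.

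Chemokines were the list with the largest share of lower members, 16 of 19 tested, with 1 higher and a median of -2.23. Ccl5, which attracts T cells and monocytes (chromosome 11, 83416604 to 83421344), went from 752, 532 and 885 CPM to 107, 98.5 and 110 CPM (log2 -2.76, SE 0.19, edgeR adjusted p = 3.5e-04). Cxcl10, a target of interferon and NF-kB, was at 21.5, 18.3 and 25.9 against 3.88, 3.62 and 2.69 CPM (log2 -2.67). The neutrophil attractants Cxcl1 (-3.96), Cxcl3 (-3.72) and Cxcl2 (-2.94) and the monocyte attractant Ccl2 (436, 586 and 185 against 43, 38 and 48.6 CPM, -3.20) fell as well. Ccl6, the most abundant chemokine per gene length in both groups (4740 ± 442 against 1750 ± 127 FPKM), fell by 1.44 on the log2 scale, and Ccl3 by 1.76. Cxcl16, a membrane-bound chemokine and scavenger receptor, was the 1 member that rose (235, 288 and 253 against 455, 479 and 445 CPM, log2 0.85). Ccl22, which fell by 2.23 on the log2 scale, is also a marker of dendritic cells, whose list was lower in the same libraries.

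**Figure D2:**
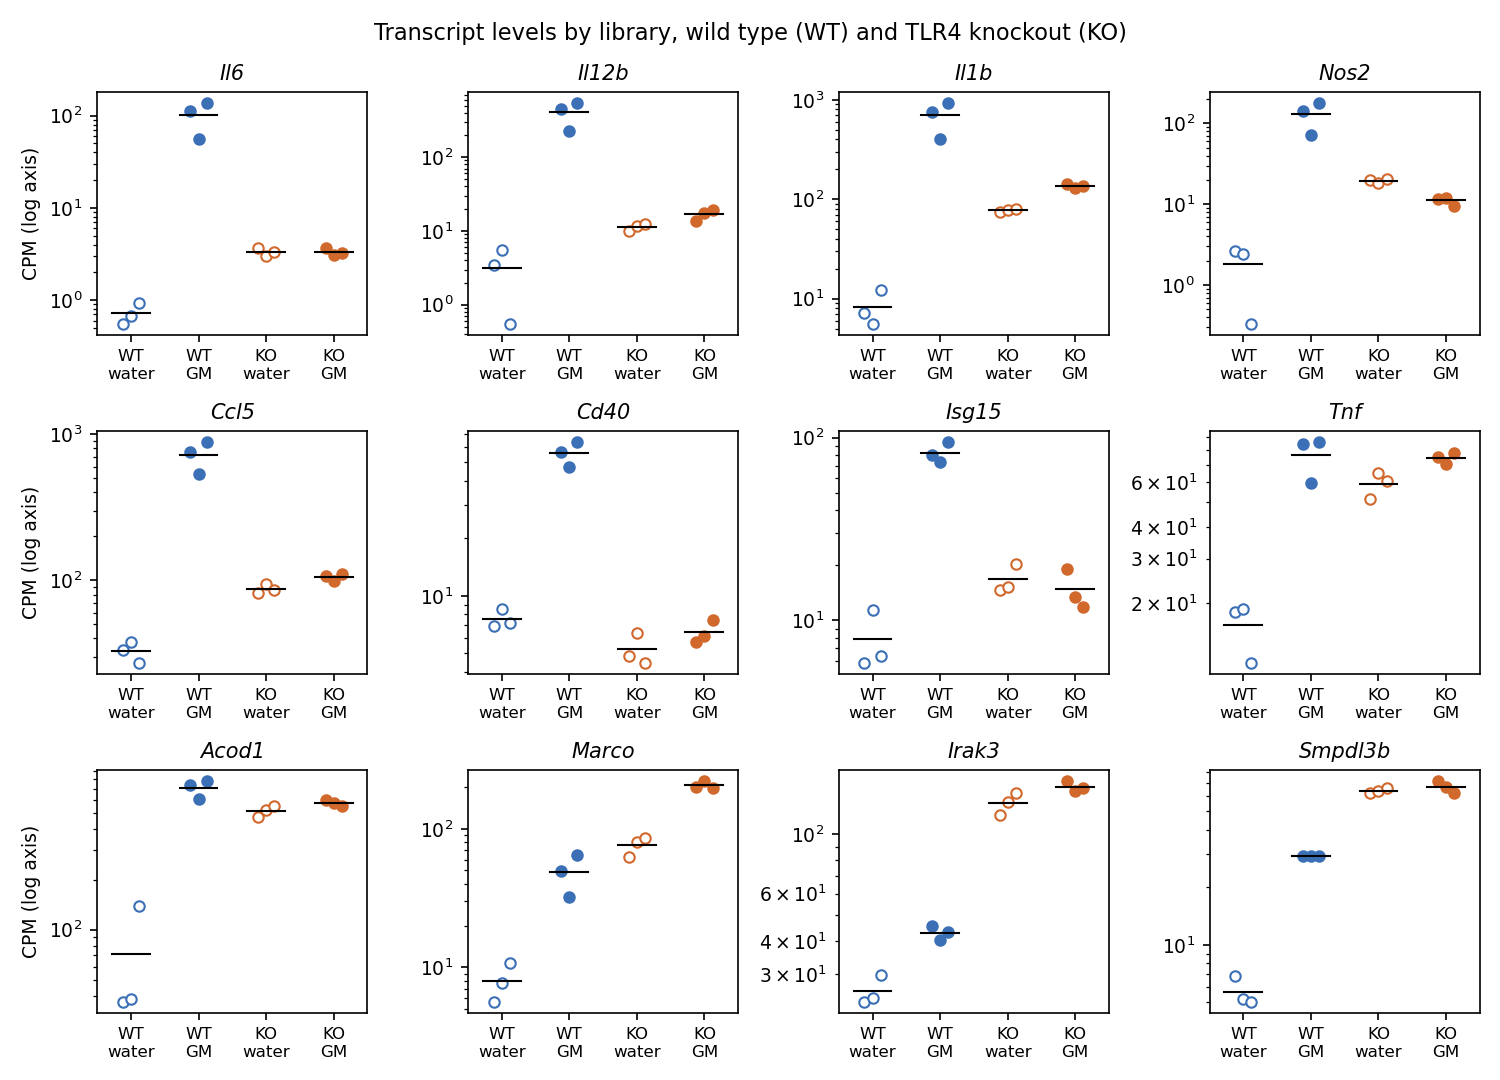
Levels of named genes in CPM (log axis) in each library of wild type (blue) and TLR4 knockout (orange), with water (open) or GM (filled), and the mean of 3 libraries as a black line. Il6, Il12b, Il1b, Nos2, Ccl5, Cd40 and Isg15 are highest in wild type with GM, whereas Tnf and Acod1 overlap or nearly meet between the genotypes with GM, and Marco, Irak3 and Smpdl3b are higher in knockout.

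Antimicrobial and immunometabolic effectors split: of 26 tested, 8 were lower and 5 higher, with a median of -0.25. With total counts 7 were lower and 8 higher, and without wild-type replicate 2, 10 were higher. Ptgs2, the inducible cyclooxygenase, fell from 273, 136 and 344 CPM to 13, 12 and 14.9 CPM (log2 -4.22, edgeR adjusted p = 5.9e-04). Nos2, which makes nitric oxide (chromosome 11, 78811613 to 78851080), fell from 142, 72.5 and 179 CPM to 11.7, 12.1 and 9.59 CPM (log2 -3.54, SE 0.34, edgeR adjusted p = 8.7e-04). The arginine transporter gene Slc7a2 was lower too (log2 -1.52), as was the acute-phase gene Saa3 (673, 474 and 829 against 396, 300 and 326 CPM, log2 -0.93), the latter not without wild-type replicate 1 or knockout replicate 2 or 3.

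Acod1, which makes itaconate, was at 740, 612 and 781 CPM in wild type and 604, 579 and 554 CPM in knockout and did not pass (log2 -0.27, edgeR adjusted p = 0.102). It did pass without wild-type replicate 2. The 5 members that rose were the scavenger receptor Marco (49.7, 32.4 and 64.2 against 201, 221 and 197 CPM, log2 2.10, edgeR adjusted p = 0.00142), the fatty acid receptor Gpr84 (1.68), haptoglobin (Hp, 1.79), the oxidase subunit Ncf4 (0.76) and Arg1. Arg1, the arginase of alternatively activated macrophages, stayed low in both groups, at 0.329, 0.591 and 1.16 against 2.96, 3.41 and 2.69 CPM (log2 2.15), and did not pass without knockout replicate 2.

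Type I interferon response genes fell without exception among those that passed: 23 of 37 tested were lower, 0 higher and 14 did not pass, with a median of -1.01. Isg15, the ubiquitin-like modifier (chromosome 4, 156283912 to 156285253), was at 80.2, 73.5 and 94.5 CPM in wild type and at 19, 13.4 and 11.8 CPM in knockout (log2 -2.47, SE 0.19, edgeR adjusted p = 4.5e-04). Irf7, the transcription factor that amplifies the response, went from 176, 171 and 197 CPM to 49.2, 31 and 32.3 CPM (log2 -2.25). Wide gaps were those of Ifi205 (36.8, 22.5 and 43.8 against 2.25, 1.53 and 1.61 CPM, log2 -4.23), Oasl1 (-3.65) and Rsad2, which encodes the antiviral enzyme viperin (457, 332 and 576 against 69.5, 53.8 and 50.4 CPM, -2.95). Phf11d (-2.60) and the nucleotide kinase gene Cmpk2 (-2.47) were also among the members of smallest p. The signal transducers of the interferon receptor were lower by less or did not pass: Stat2 had a log2 difference of -0.72, and Irf9 did not pass (-0.08, edgeR adjusted p = 0.822).

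Guanylate-binding proteins and immunity-related GTPases, which attack the vacuoles of intracellular microbes, were lower in 11 of 14 cases and higher in 0 (median -2.05). Gbp4 went from 33.7, 35.3 and 32.4 CPM to 2.71, 2.49 and 1.93 CPM (log2 -3.81, edgeR adjusted p = 1.0e-04) and Gbp5 from 93.3, 145 and 107 CPM to 9.86, 8.45 and 8.33 CPM (-3.68). Gbp3 (-2.28) and Gbp2 (-2.13) had smaller differences, as did the GTPase genes Igtp (-0.82) and Irgm1 (-0.80). Antigen presentation genes moved less, with 6 lower and 0 higher of 22 (median -0.45): Cd80 (-1.45), Cd274, which encodes PD-L1 (-1.22), B2m (-0.68) and Tap2 (-0.51) had the smallest p, the last not without any 1 of the knockout libraries. Of the list 3 were lower without any 1 of these and 11 without wild-type replicate 3, and 6 were higher without wild-type replicate 2. Several of these genes, like Ifi205, have close relatives in the genome, and how reads that match more than 1 gene were counted is not given in the sources used here. The MHC class II gene H2-Ab1 was at 373, 911 and 378 CPM in wild type and 498, 502 and 499 in knockout. It did not pass (log2 -0.13) and was higher in knockout without wild-type replicate 2 (log2 0.44, edgeR adjusted p = 8.8e-04).

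Promoters of these genes were read for letters of 2 motifs, on either strand, in the 300 bases around each start site that RefSeq gives for mouse build GRCm38.p6. Of 32851 promoters 3.44% held GAAA, any 2 bases and GAAA, letters of the interferon-stimulated response element (ISRE), and 0.411% held GGGA, any base and TTTCC, letters of the kB element. The ISRE letters were in 53.6% of 28 promoters of tested interferon response genes (25 of 37 genes matched by symbol) and in 77.8% of 9 promoters of the GTPase list (8 of 14 matched). The kB letters were in 23.1% of 13 chemokine promoters (13 of 19 matched), 12.5% of 16 cytokine promoters (13 of 18 matched) and 12.5% of 24 promoters of the NF-kB list (19 of 25 matched). A match is a run of letters and not a shown binding site. Printed here are the 200 bases before the start site of 5 lower genes that hold a match, to show where it lies, with every match in capitals.
Isg15: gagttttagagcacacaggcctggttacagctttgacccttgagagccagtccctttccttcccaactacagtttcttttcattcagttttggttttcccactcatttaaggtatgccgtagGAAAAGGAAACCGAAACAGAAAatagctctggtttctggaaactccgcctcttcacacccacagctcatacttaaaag
Rsad2: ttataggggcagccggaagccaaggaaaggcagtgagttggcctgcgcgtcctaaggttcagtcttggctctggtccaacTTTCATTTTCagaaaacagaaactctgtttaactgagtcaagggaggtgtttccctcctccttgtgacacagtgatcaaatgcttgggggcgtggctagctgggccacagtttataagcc
Gbp5: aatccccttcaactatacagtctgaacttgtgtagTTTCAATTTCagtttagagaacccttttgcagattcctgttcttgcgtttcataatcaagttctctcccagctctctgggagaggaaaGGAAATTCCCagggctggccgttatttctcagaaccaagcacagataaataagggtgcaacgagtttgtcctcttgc
Il6: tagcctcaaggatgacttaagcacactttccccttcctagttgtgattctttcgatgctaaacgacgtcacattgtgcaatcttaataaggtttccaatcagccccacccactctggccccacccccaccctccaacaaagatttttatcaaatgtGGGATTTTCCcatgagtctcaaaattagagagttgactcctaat
Cxcl1: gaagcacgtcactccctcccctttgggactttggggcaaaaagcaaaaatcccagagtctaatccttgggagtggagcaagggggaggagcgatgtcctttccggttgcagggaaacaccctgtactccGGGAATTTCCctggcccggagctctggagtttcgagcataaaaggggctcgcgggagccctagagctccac
The windows are chr4:156200819-156201018, minus strand for Isg15, chr12:26456453-26456652, minus strand for Rsad2, chr3:142496734-142496933, plus strand for Gbp5, chr5:30012914-30013113, plus strand for Il6 and chr5:90891045-90891244, plus strand for Cxcl1, each written 5′ to 3′ along the gene. Isg15 holds 3 overlapping matches to the ISRE letters, which begin 78, 72 and 66 bases before the start site, and Rsad2 holds 1, on the other strand, 120 bases before it. Gbp5 holds 1 match to each motif, both written on the other strand. The match to the kB letters begins 44 bases before the start site in Il6 and 71 bases before it in Cxcl1.

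Other pattern recognition receptors were evenly split, with 4 higher and 4 lower of 25 tested. These shares lay near those over all genes tested, 14.8% higher and 17.6% lower. The lower receptors were 7 without wild-type replicate 3 and 2 without replicate 1 or any 1 of the knockout libraries. Tlr2, the receptor of bacterial lipopeptides, was higher (211, 223 and 155 against 459, 461 and 435 CPM, log2 1.22, edgeR adjusted p = 0.00148), as were Clec5a (1.41), Tlr9 (1.42) and Naip5 (0.47). The scavenger receptor Cd36 (-1.82) and Ripk2, the kinase below the NOD receptors (43.2, 39.9 and 50.4 against 22.1, 23.4 and 23.7 CPM, -0.93), were lower, along with Nod1 (-0.62) and Mrc1 (-0.49). Nod2, the muramyl dipeptide sensor, was at 17.2, 27.6 and 12.4 against 16.9, 16.9 and 16.4 CPM and did not pass (log2 -0.17, edgeR adjusted p = 0.658). Of 17 alternative activation genes 4 were higher and 5 lower (2 lower without any 1 of the knockout libraries). The cytokine signalling inhibitor Socs1 (55.4, 65.9 and 40.7 against 10.6, 10.8 and 9.85 CPM, log2 -2.35) and the receptor Il4ra (-1.03) fell, and the lipid receptor Trem2 (0.79) and Chil3 (1.68) rose. The medians of these 2 lists, 0.05 and 0.12, lay near 0 and changed sign under some of the alternatives.

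**Figure D3:**
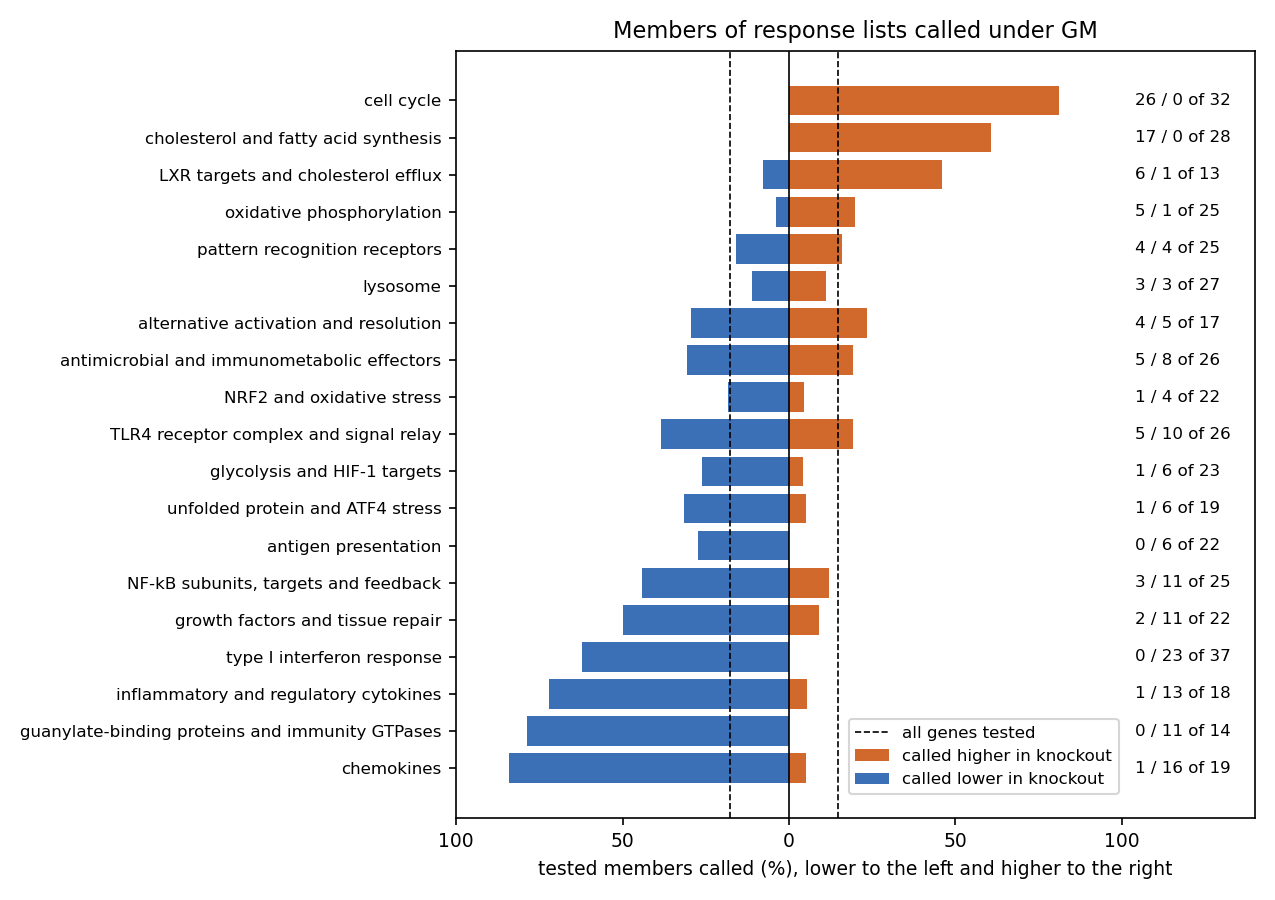
Share of the tested members of each list that were lower (blue, to the left) or higher (orange, to the right) in knockout under GM, in %, with the numbers higher, lower and tested at the right. The dashed lines mark the shares over all genes tested, 17.6% lower and 14.8% higher. Chemokines (16 of 19 lower) stand at one end and cell cycle genes (26 of 32 higher) at the other.

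Genes of cell division were mostly higher in knockout. Of 32 cell cycle genes 26 were higher and 0 lower, with a median of 1.69. Mki67, which marks cycling cells, was at 68.4, 97.3 and 56.7 CPM in wild type and 220, 213 and 202 CPM in knockout (log2 1.53, SE 0.19, edgeR adjusted p = 0.00206). Cdk1, the mitotic kinase, went from 10.9, 15.6 and 9.83 CPM to 37, 31.1 and 35.6 CPM (log2 1.53), and Bub1 (2.36) and Cdc20 (2.75), of the mitotic checkpoint, differed by more. Wild-type replicate 2 was the highest wild-type library for these 4. The number of higher members was 13 without wild-type replicate 1, 32 without wild-type replicate 2, and 12, 14 and 12 without knockout replicate 1, 2 or 3. The summed level of the list was 420 to 871 CPM in wild type and 1540 to 1590 in knockout, and with water it was 474 to 1060 and 1850 to 1980 CPM.

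Of 28 sterol and fatty acid synthesis genes 17 rose and 0 fell (median 0.85). Msmo1 (60.4, 70.3 and 47.7 against 125, 121 and 125 CPM, log2 1.08, edgeR adjusted p = 0.00211), Hmgcs1, the first committed enzyme of the mevalonate route (1.04), Lss (0.85) and Stard4 (0.86) had the smallest p. The desaturase gene Scd1 had the largest difference of the list (21.6, 65.2 and 17.7 against 233, 269 and 232 CPM, 2.83). The list had 8 higher members without wild-type replicate 1, 24 without replicate 2, and 11, 9 and 9 without knockout replicate 1, 2 or 3. Of 13 LXR targets, 6 were higher and 1 lower (median 0.27). Among them were the cholesterol exporter Abca1 (246, 336 and 189 against 744, 763 and 708 CPM, log2 1.55), Lpcat3 (1.11), Srebf1 (1.04) and Mylip (0.96), while the lipid droplet gene Plin2 fell (-1.30), a call lost without any library but wild-type replicate 2.

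The counts of the metabolic and stress lists stand beside 14.8% higher and 17.6% lower over all genes tested. Of 23 glycolysis and HIF-1 targets 6 were lower, among them the glucose transporter Slc2a1 (-1.11), Pfkfb3 (-0.97), Hk3 (-0.80) and Pfkp (-0.58), and 1 was higher, the pyruvate dehydrogenase kinase gene Pdk1 (1.02). Of 25 oxidative phosphorylation genes 5 were higher and 1 lower, with a median of -0.03 that turned to 0.08 when scaled by total counts. Sdhb (0.53), Ndufs8 (0.56), Ndufa2 (0.28) and, against them, Cox5a (-0.51) were of smallest p. Of 22 NRF2 targets 4 were lower and 1 higher, with a median of -0.58. Gclc (-1.74), Hmox1 (1980, 721 and 1930 against 590, 607 and 611 CPM, -1.34), Txnrd1 (-1.06) and Cat (-1.12) fell, and Tkt rose (0.39). Wild-type replicate 2 lay near the knockout libraries for Hmox1 and Txnrd1, and the number of lower members was 17 without it and 0 without wild-type replicate 1 or any 1 of the knockout libraries. Glycolysis had 12 lower members without wild-type replicate 2, and oxidative phosphorylation 2 higher ones without wild-type replicate 1 or any 1 of the knockout libraries.

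Of 27 lysosomal genes 3 were higher and 3 lower, beside 14.8% and 17.6% of all genes tested. The counts were 6 and 7 without wild-type replicate 2, and 8 and 3 with total counts, and 7 were higher without wild-type replicate 3. The protease gene Ctsl fell (2280, 1700 and 2160 against 728, 777 and 722 CPM, log2 -1.44), whereas Ctsk, an osteoclast marker as well, rose (31.2, 28 and 32.4 against 117, 115 and 109 CPM, 1.92). In the stress list 6 of 19 were lower and 1 higher, led by Ddit3, the apoptotic factor of the integrated stress response (41.6, 43.2 and 51.1 against 17.3, 16.9 and 17.8 CPM, -1.36), with Sesn2 (-1.10), Atf3 (-0.87) and the chaperone gene Pdia4 (-1.40).

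Growth factor and tissue repair genes were lower in 11 of 22 cases and higher in 2 (median -0.56). Plau, the urokinase gene, went from 486, 472 and 542 CPM to 103, 115 and 117 CPM (-2.14), Hbegf from 16.5, 21.1 and 17.6 CPM to 1.89, 1.53 and 1.16 CPM (-3.57), and Serpinb2 from 289, 226 and 232 CPM to 82.7, 72.1 and 86.9 CPM (-1.61). The metalloproteinase gene Mmp14 (261, 370 and 169 against 800, 802 and 728 CPM, 1.56) and its partner Timp2 (1.19) rose. The stromal markers were lower in the same libraries, and their part in this list was not tested.

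Single genes with the largest differences were taken among protein-coding genes that reached 5 CPM in 1 group. Among the 10 lowest in knockout were Aebp1, Grem1, Col12a1, Ccn2, Ddr2, Asgr2, Serpinh1, Cyp26b1 and Hspb1, several of which encode matrix proteins or factors secreted by stromal cells. Aebp1, a collagen-binding protein, had 1558 counts in the wild-type libraries together and 3 in the knockout libraries (ratio 600, exact interval 205 to 2910 at 95%, counting error only), and Grem1, an antagonist of bone morphogenetic proteins, had 1134 and 8. Asgr2 varied most within wild type (7.79, 49.6 and 0.611 CPM), and its call was lost without any 1 of the knockout libraries. All 10 were lower in knockout with water as well, with log2 differences of -5.15 to -7.48.

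The 10 highest were Tgm6, Cx3cr1, S100a9, Clec4a1, Cstdc5, Cd200r2, Crisp1, S100a8, Aspm and Prg2. Tgm6, a transglutaminase gene, had 0 counts in the wild-type libraries with GM and 704 in knockout, at 10.5, 11.5 and 12.3 CPM, at least 203-fold higher against a floor of 3 counts over the wild-type group. It had 4 counts in wild type with water and 0 with MDP, and means of 10.8 and 13.8 CPM in knockout. Cx3cr1, the fractalkine receptor of monocytes and tissue macrophages, was at 0.165, 0.913 and 0 CPM in wild type and 14.7, 11.3 and 10.5 CPM in knockout. S100a8 (22.3, 7.2 and 11.8 against 128, 116 and 141 CPM, log2 3.24) and S100a9 (12.1, 2.9 and 1.77 against 104, 89.6 and 127 CPM, 4.27), the subunits of calprotectin, and the lectin gene Clec4a1 (12.3, 16.3 and 5.56 against 146, 132 and 131 CPM, 3.60) are expressed by neutrophils or monocytes, among other cells. The call of Prg2, an eosinophil granule protein, was lost without knockout replicate 1.

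Whether these genotype differences belong to GM was asked by setting them beside the same comparison with water, which shares no library with it. With water 2256 of 14294 genes differed between the genotypes (15.8%), 6.98% of all genes tested being higher in knockout and 8.8% lower. Of the genes higher in knockout under GM and tested in both, 705 were also higher with water, 33.6% of those higher under GM and 71.4% of those higher with water. Of the genes lower under GM, 989 were lower with water, 40.1% and 81.3%. Whatever the threshold, 97.4% of the genes higher under GM and 92.7% of those lower had a difference of the same sign with water, where the wild-type libraries varied more (coefficient of variation 35.4%). Of the genes lower under GM, 32 were higher with water, and of those higher under GM 0 were lower with water. With MDP, 6711 of 14304 genes differed (46.9%, with 23.7% higher and 23.3% lower), 1262 of them shared in the higher direction (60% of those higher under GM and 37.7% of those higher with MDP) and 1509 in the lower (62.4% and 46.5%). The wild-type libraries varied least with MDP (coefficient of variation 8.09%, against 27.6% with GM). The numbers of genes that passed thus do not rank the conditions by the size of their genotype differences. The shared higher genes were 819 without wild-type replicate 1 and 640, 650 and 654 without knockout replicate 1, 2 or 3 of the GM libraries, and the shared lower ones 834, 874 and 830 without the latter.

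The difference between the 2 genotype differences was then tested gene by gene. Under GM against water 144 of 15117 genes passed (0.953%), 142 of them with a genotype difference that was lower under GM (0.939%) and 2 with a higher one (0.0132%). Of those 142 genes, 107 were lower in knockout under GM and 17 higher, and 54 belong to the lists. The cytokine list held 9 of them, the effector list 9, the interferon list 16, the NF-kB list 7 and the chemokine list 5, against 0 of the cell cycle genes and 1 of the sterol genes. Few calls do not show an equal genotype difference, as the wild-type libraries varied widely with water (coefficient of variation 35.4%). The count was 515 without wild-type water replicate 3, with 395 lower and 120 higher, so the balance of 142 to 2 rested in part on that library. With DESeq2, 286 were lower and 30 higher. The count was 90, 76 or 79 without water knockout replicate 1, 2 or 3, and 84, 71 or 72 without GM knockout replicate 1, 2 or 3.

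Among these, Il6 with water was at 0.555, 0.67 and 0.941 CPM in wild type and at 3.72, 2.99 and 3.35 CPM in knockout, so that knockout was the higher (log2 2.21, edgeR adjusted p = 0.00705). With GM the wild-type libraries stood at 55.8 to 137 CPM and the knockout libraries at 3.05 to 3.63 CPM, which overlap with their level in water. The test of the difference gave a log2 value of -7.15 (SE 0.47, edgeR adjusted p = 5.4e-05). Il1b, too, was higher in knockout with water and lower with GM (7.11, 5.6 and 12.1 CPM in wild-type water, 74.4, 77.9 and 80 CPM in knockout water, and a tested log2 difference of -5.59), as did Nos2 (2.62, 2.44 and 0.332 against 20, 18.3 and 20.3 CPM, -7.00) and Ccl5 (33.4, 37.6 and 27.3 against 81.9, 94.4 and 86.1 CPM, -4.20). Their knockout levels did not overlap between water and GM: those of Il1b and Ccl5 were higher with GM and those of Nos2 lower.

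Tnf and Acod1, which did not differ between the genotypes under GM, differed with water. Tnf was at 18.5, 19.1 and 11.7 CPM in wild-type water and at 51.7, 65.1 and 60.7 CPM in knockout water (log2 1.85, edgeR adjusted p = 0.00473). Acod1 was at 36.9, 38.1 and 139 against 474, 520 and 554 CPM (2.86, edgeR adjusted p = 0.0212). For both the genotype difference was lower under GM (Tnf -1.89, edgeR adjusted p = 0.00617, and Acod1 -3.15, edgeR adjusted p = 0.0335). Smpdl3b, a membrane lipase gene, was higher in knockout under both conditions, by 3.49 with water and 1.23 with GM (tested difference -2.29, edgeR adjusted p = 5.4e-05). In the interferon list no member was lower in knockout with water and 3 were higher, and Isg15 stood at 5.85, 11.4 and 6.36 CPM in wild-type water and 14.7, 15.2 and 20.4 in knockout water (log2 1.09, edgeR adjusted p = 0.055). Tfrc, the transferrin receptor gene, was 1 of the 2 genes whose genotype difference was higher under GM (85.6, 99.7 and 125 against 263, 289 and 287 CPM, log2 1.46, tested difference 1.04). The tests of the difference for Acod1, Tfrc, Cxcl10 and Ptgs2 did not pass without any 1 of the knockout libraries of either condition.

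**Figure D4:**
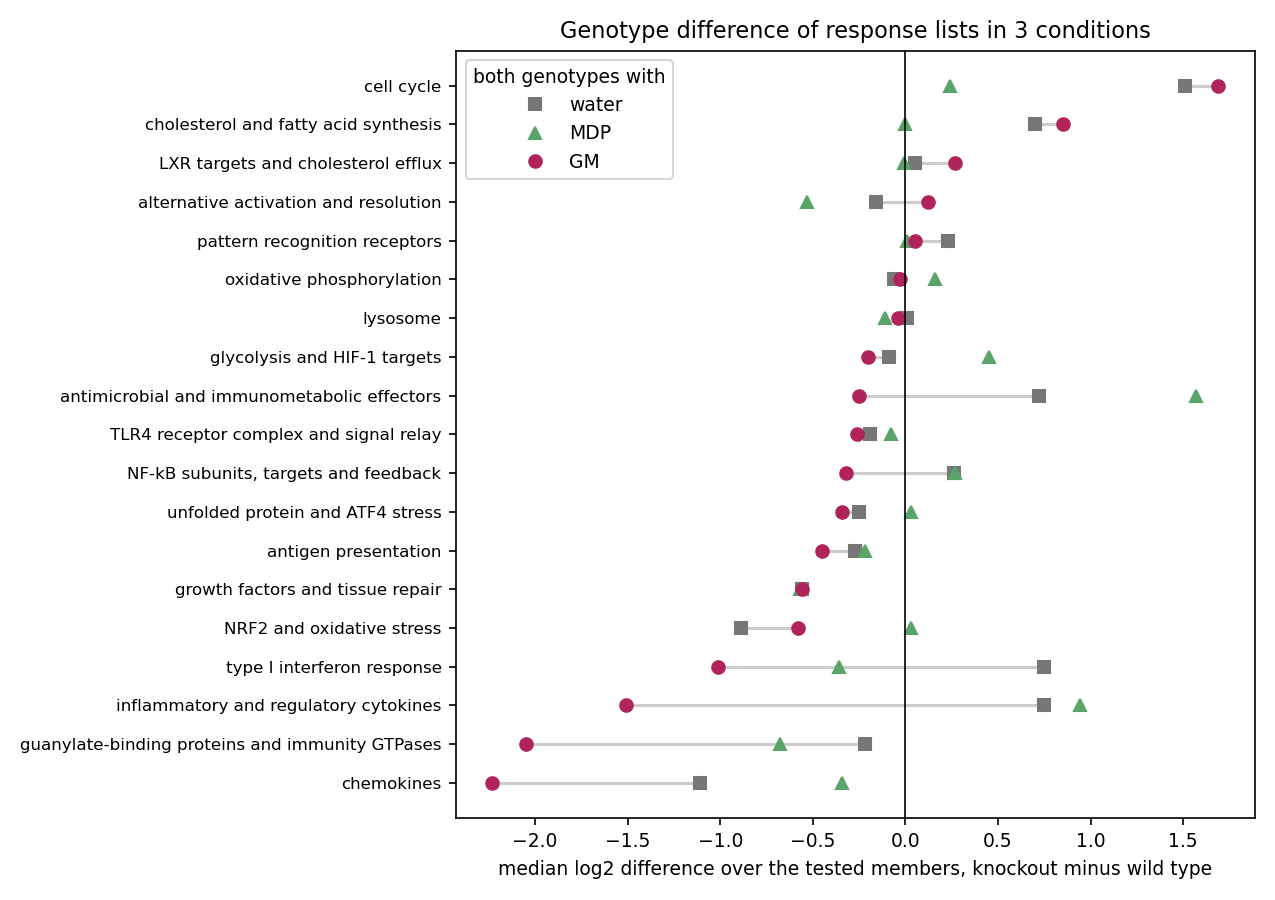
Median log2 difference between knockout and wild type over the tested members of each list (horizontal axis), with both genotypes given water (grey squares), MDP (green triangles) or GM (red circles). A grey line joins water and GM. The medians of the cytokine and interferon lists lie at 0.75 with water and at -1.51 and -1.01 with GM, whereas those of the cell cycle list lie at 1.51 and 1.69. For the cell cycle list, wild-type water replicate 3 lay far below replicates 1 and 2.

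Against MDP, the other muropeptide, the genotype difference changed in 2345 of 15001 genes (15.6%). It was higher under GM in 1154 of them (7.69%) and lower in 1191 (7.94%). The wild-type libraries varied less with MDP than with water (coefficient of variation 8.09% and 35.4%). This count and that against water therefore do not show which condition lay nearer to GM. The lists with the most such members were the cell cycle, with 26 of 32 higher under GM, and glycolysis, with 17 of 23 lower. Cell cycle genes had a median genotype difference of 0.24 with MDP against 1.69 with GM, and glycolysis genes one of 0.45 against -0.20. Lower interferon and GTPase genes were not particular to GM. In the interferon list 24 of the 37 members were lower in knockout with MDP and 1 higher, against 23 and 0 with GM. In the GTPase list 10 of 14 were lower with MDP and 1 higher, against 11 and 0. The genotype difference was lower under GM than with MDP in 14 and 8 members of these lists. Il6 was higher in knockout with MDP (4.76, 6.51 and 4.14 against 21.2, 28 and 28.5 CPM, log2 2.34), and the tested difference between the conditions was -7.25 on the log2 scale (edgeR adjusted p = 6.4e-06).

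The 5 genes of smallest p whose genotype difference was lower under GM than under MDP were Slco3a1, an organic anion transporter (tested difference -2.38), Inhba, which encodes the activin A subunit (-3.11), the phospholipase gene Pla1a (-4.61), Slc7a2 (-4.47) and Tma16 (-2.21). Inhba was at 669, 498 and 769 CPM in wild type with GM against 167, 186 and 178 CPM in knockout, and with MDP at 168, 142 and 160 against 369, 373 and 385 CPM. Those with a higher difference under GM were the adhesion receptor gene Adgre5 (2.09), Gm48342 (2.96), the heparanase gene Hpse (1.41), the transcription factor gene Lyl1 (1.55) and Nav2 (1.42). Lyl1 was at 5.87, 4.94 and 5.25 CPM in wild type and 31.1, 28.6 and 28.7 CPM in knockout with GM (log2 2.48). The GM calls of Adgre5 and Nav2 were lost without wild-type replicate 1 or any 1 of the knockout libraries.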

How the data were processed

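The series holds poly(A)-enriched, strand-specific RNA-seq of mouse macrophages. Per the submitters' processing notes, reads were aligned with HISAT2 2.0.5 to GRCm39 and counted with featureCounts 1.5.0-p3. How counting used strand and multiply mapped reads is not given in the sources used here. The authors deposited whole-number counts per gene and FPKM. The FPKM values were computed by the authors and were used only to order levels within a list.

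From the counts, 56748 genes were filtered with edgeR 4.0.16 (filterByExpr, min.count of 10), which kept 14377 genes and at least 99.88% of the counts, and scaled with TMM factors of 0.958 to 1.052. Knockout and wild type under GM were compared by edgeR's quasi-likelihood test on 6 libraries (4 residual degrees of freedom) with Benjamini-Hochberg adjustment over all genes tested, called under 0.05. Differences between conditions used the same test on 12 libraries with an interaction term. CPM were taken on TMM factors over all 18 libraries. The libraries' 17242387 to 21128507 counts set the precision, and intervals on counts cover counting error only. Principal components were taken from the 1000 most variable genes. The test was also run on simulated counts with few changed genes and a common spread for all genes of a group. That setting differs from these data, and its outcome is not reported here.

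The named genes are Tlr4, a fixed panel of 20 genes, the 4 members of smallest p of each list and any called against its majority, and the 10 highest and 10 lowest by fold among called protein-coding genes reaching 5 CPM in 1 group, without overlap and with 1 direction in every fit without 1 library. To these come the 5 genes of smallest p in each direction of each interaction that were also called under GM. Other listed genes named for their place in a pathway were chosen after their values were seen. The comparison, the 19 response lists and the 8 marker lists were chosen with earlier results of these data known. Alternatives were other scaling (RLE, total counts), no filter, DESeq2 1.42.0, limma 3.58.1 (voom), all 18 libraries in the fit, a replicate block and leaving out each library. A few genes that this rule names are not reported here.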

Additional observations from a re-analysis of the deposited data

Results flagged for a closer look

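Each of these genes was picked out because the difference between knockout and wild type under GM itself differed from that with water, by edgeR's interaction test over 12 libraries. Values are the genotype difference under GM minus that with water, on the log2 scale. Among cytokines it was -7.15 for Il6, -6.42 for Il12b, -5.59 for Il1b and -1.89 for Tnf. Among chemokines it was -4.20 for Ccl5 and -4.13 for Cxcl10. Among effectors it was -7.00 for Nos2, -4.22 for Ptgs2, -3.41 for Saa3 and -3.15 for Acod1. Of the interferon response genes, Irf7 had a value of -3.59 and Isg15 one of -3.58. Outside these groups the values were -5.69 for the complement factor gene Cfb, -2.61 for Serpinb2 and -2.29 for Smpdl3b. Tfrc alone of the 16 had a positive value, 1.04. Cfb was at 10.8, 7.84 and 11.7 CPM in wild type with GM and at 3.07, 1.93 and 2.46 CPM in knockout.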

How the results depend on the processing

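Of the 134 genes that the naming rule picked, the call was the same in 134 with RLE scaling, 134 with DESeq2, 132 with total counts, 131 with all 18 libraries, 127 with voom, 125 without a filter and 120 with the replicate block (13 lost and 1 reversed). Over all fits without 1 library 735 gene calls were the same, 62 were lost, 5 reversed and 2 gained. The 4654 genes called became 4649 with RLE scaling, 4778 with total counts, 4296 without a filter, 5303 with DESeq2, 4393 with voom and 5780 with all 18 libraries, and ranged from 2190 to 6514 when 1 library was left out. Same-numbered samples of the 2 genotypes did not deviate together (correlations 0.023, -0.074 and 0.03). With 3 samples a group and little spread in knockout (6.12%), this cannot decide whether the numbers pair them. With a replicate block 3359 genes were called under GM, 107 in the interaction with water and 2235 in that with MDP. The 144 genes of the interaction with water became 316 with DESeq2 and 287 with all 18 libraries, and ranged from 71 to 515 without 1 library. Those with a higher difference under GM, 2 in the main fit, were 30 with DESeq2 and 120 without wild-type water replicate 3. The 2345 of the interaction with MDP became 1511 with all 18 libraries and ranged from 1519 to 4582 without 1 library. The 705 genes higher under GM and with water were 1140 with DESeq2, 1562 with all 18 libraries and 277 with the replicate block (471 to 783 without 1 library), and the 989 lower in both were 2082 with all 18 libraries and 420 with the block (641 to 1032). Without 1 library, the 1262 higher under GM and with MDP ranged from 640 to 1608 and the 1509 lower from 830 to 1770, and with total counts they were 1850 and 1042. Of values near 0, Tnf (-0.02) turned to 0.09 with total counts, 0 with voom, 0.06 without wild-type replicate 1, 0.08 without wild-type replicate 3 and 0.02 without knockout replicate 2, and ranged from -0.17 to 0.08 without 1 library. H2-Ab1 (-0.13) turned to 0.01 with voom and with the block and ranged from -0.34 to 0.44 without 1 library, and Nod2 (-0.17) from -0.39 to 0.21, both highest without wild-type replicate 2. The cause was not tested, other than that settings without 1 library have fewer samples. Depth limited Il10, Ifnb1 and other listed genes under the filter, which were not tested.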
